A study of Mus musculus with 2 samples.

Results

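Mbd1, Arid1b and Wiz are 3 genes of chromatin regulation that carried regions of differing 5-hydroxymethylcytosine (5-hmC) between imiquimod-treated and Vaseline-treated mouse epidermis. Their regions were found as the entries of the deposited region table whose gene assignment holds exactly 1 of these genes. This gave 4 of the 364 listed regions: 1 in Mbd1, 2 in Arid1b and 1 in Wiz. The genes were proposed with these values known, and the authors had already selected every listed region for a large difference, so the differences between conditions below are descriptions and carry no test.

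The epidermis came from C57BL/6J mice of 6 weeks, and both libraries carry the label WT, read here as wild type. The imiquimod library came from skin given imiquimod cream, 3.125 mg of the active compound daily for 6 days, and the Vaseline library from skin given Vaseline as vehicle in the same way. Imiquimod activates the innate immune receptor TLR7 and, applied repeatedly, gives mouse skin a psoriasis-like inflammation. In hMeDIP-seq, sheared DNA that carries 5-hmC is captured with an antibody and sequenced, and the number of tags piled up over a position measures its 5-hmC signal. There was 1 library per condition, the sources used here do not state how many mice were behind each, and no replicate spread exists. DNA of the whole epidermis was pooled, so a changed mixture of cells and a changed amount of 5-hmC per cell cannot be told apart. A DNA assay gives no expression markers with which to check the tissue label.

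5-hmC is made from 5-methylcytosine by the TET enzymes and is found mainly in gene bodies and at enhancers of differentiated cells. MBD1 is a reader of DNA methylation: its methyl-CpG-binding domain recognises methylated CpG, and it also has CXXC zinc fingers, a class of domain that in some proteins binds unmethylated CpG. ARID1B is a DNA-binding subunit of the BAF complex, which uses ATP to move nucleosomes. WIZ is a zinc finger protein that partners the histone methyltransferases G9a and GLP, which place methyl groups on lysine 9 of histone H3 and so mark silent chromatin.

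The Wiz region is the one among the 4 that overlaps coding sequence, so its exonic bases are shown. Listed at chr17:32376412-32376918 in the mm10 build, it covers the 3' end of exon 3 of the transcript Wiz-213, on the minus strand. Of its 506 bp, 403 bp (79.6%) are exon and the remaining 103 bp are intron. The last 300 bases of the exon, chr17:32376516-32376815 on the minus strand, include the centre of the region. They are given from 5' to 3' from the GENCODE M21 transcript sequence (GRCm38), with each CpG, the site at which most mammalian methylation and hydroxymethylation occurs, in capitals.
Wiz-213 exon 3, last 300 bases: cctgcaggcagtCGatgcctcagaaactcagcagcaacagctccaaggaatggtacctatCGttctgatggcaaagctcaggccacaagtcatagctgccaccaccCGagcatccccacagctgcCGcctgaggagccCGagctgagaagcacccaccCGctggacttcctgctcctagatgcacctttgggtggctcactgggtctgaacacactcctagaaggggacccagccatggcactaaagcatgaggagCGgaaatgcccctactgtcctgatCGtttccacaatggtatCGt
These 300 bases hold 9 CpG sites, and the observed number of CpG was 0.37 of that expected from the base composition (GC content 57.3%). The 9 sites are unevenly spread, with stretches of the exon that hold none. Over the whole 403 bp stretch CpG also numbered 9, or 2.23 per 100 bp. Among 81 listed regions with an exonic stretch of 200 bp or more, this density ranked 75th from the top, against a median of 4.05 per 100 bp. The 58 such stretches in lower regions without a CpG island had a median of 3.54 per 100 bp, and the 21 in lower regions with one had 6.54. The Wiz stretch thus had few CpG sites for a listed exonic region, and the table assigns it no CpG island.

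The direction of the 5-hmC difference was opposite between Mbd1 and the other genes. The Mbd1 region was higher in imiquimod epidermis, as were 93 of all 364 listed regions (25.5%). The 3 regions of Arid1b and Wiz were lower, as were 271 of all listed regions (74.5%). A split of 1 higher and 3 lower regions is close to that background and is not by itself a result about these genes. All 4 regions differed by 2-fold or more, which holds for 25.3% of listed regions in the higher and 74.2% in the lower direction because the authors selected on it.

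**Figure D1:**
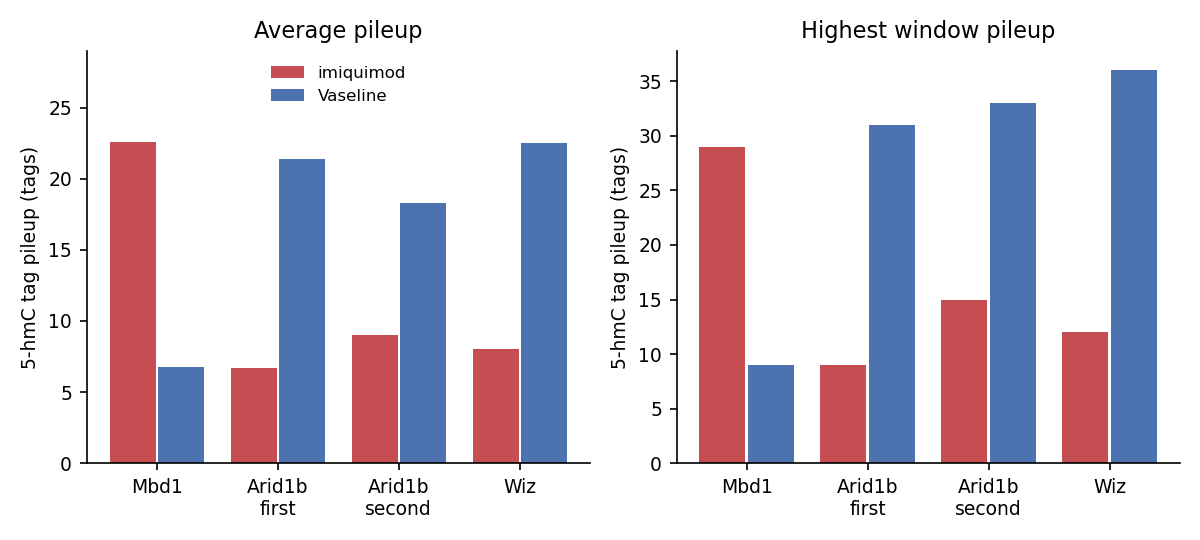
Average 5-hmC pileup over each region (left) and the highest pileup of any window in it (right), in tags, for the imiquimod library and the Vaseline library, 1 library each and so without error bars. Imiquimod is above Vaseline in the Mbd1 region (22.6 against 6.78 on average) and below it in both Arid1b regions and in Wiz.

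At Mbd1, the methyl-CpG reader, the average pileup was 22.6 tags in imiquimod epidermis and 6.78 tags in Vaseline epidermis. Over the 593 bp of the region this corresponds to 59.7 tags in imiquimod and 17.9 tags in Vaseline. The ratio was 3.33-fold higher in imiquimod (95% exact interval 1.94 to 6.00 for counting error alone), the greatest of the 93 higher regions and the single higher one at 3-fold or more (0.275% of listed regions). The highest pileup of any window was 29 tags in imiquimod and 9 tags in Vaseline, a 3.22-fold difference that ranked 2nd among the higher regions. An enriched interval was called in the imiquimod library and none in the Vaseline library. This was the case for 69 listed regions (19.0%), all of them higher (74.2% of higher regions).

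Among the listed higher regions, the size of the Mbd1 ratio came with a low Vaseline value more than with a high imiquimod value. The Mbd1 Vaseline average of 6.78 was the 4th lowest among the 93 higher regions, which had a median of 10.2 and a lowest value of 6.43. Its imiquimod average of 22.6 stood near the middle of the same regions, 45th from the top, with a median of 22.4 and a highest value of 31.1. Higher regions were listed through their imiquimod tags, which keeps low imiquimod averages out of the list. Within such a list a large ratio tends to come with a low Vaseline average. The ranks of both averages are thus in part set by the selection and cannot be read as a trait of Mbd1. The signal was also flat: the highest window was 1.29 times the average in imiquimod, near the lowest value of any higher region (1.26, median 1.61), and 1.33 times the average in Vaseline (median 1.71). In its imiquimod library the highest window, 29 tags, was 12th lowest of 93.

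The Mbd1 region lies at the start of the gene (chr18:74268520-74269113, mm10). It falls inside intron 1, 87 bp after the end of exon 1 and 289 bp before exon 2, in all 4 annotated Mbd1 transcripts that span it, 2 of them basic transcripts (the representative set of GENCODE). Another 2 transcripts start further downstream and do not include it. The intron is 969 bp long, and the deposited distance from the gene start is 528 bp. The deposited table counts 1 CpG island and 1 promoter in the region. None of the other 3 regions has either.

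CpG islands are CG-rich stretches, often at gene starts and usually unmethylated. Of the 28 listed regions with an island, Mbd1 was the single higher one, 1 of 93 (1.08%), against 27 of 271 lower regions (9.96%). These regions were selected and come from 1 library per condition, so the difference in share is a description and was not tested. The islands in lower regions had a median average pileup of 9 in imiquimod and 19.96 in Vaseline epidermis. As every higher region had a greater imiquimod average than any lower region (at least 14.7 against at most 13.7), no comparison of levels between Mbd1 and these islands is drawn. The greatest differences among the lower island regions were 2.64-fold (1.56 to 4.81) in Irx1, a homeobox gene, 2.59-fold at Gas2l1 and Rasl10a, and 2.46-fold in Tril, which encodes a partner of Toll-like receptors.

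Regions near a gene start were listed in both directions. Inside a gene and within 1000 bp of its start lay the centres of 2 higher regions, Mbd1 and the region at the keratin gene Krt1, and of 14 lower regions. Of these, 1 higher region (Mbd1) and 6 lower regions held a CpG island. The lower ones with an island include Trim45, centred 667 bp from its start, where the average was 6.87 in imiquimod and 16.8 in Vaseline epidermis. This gene and Krt1 were chosen after their values were seen.

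**Figure D2:**
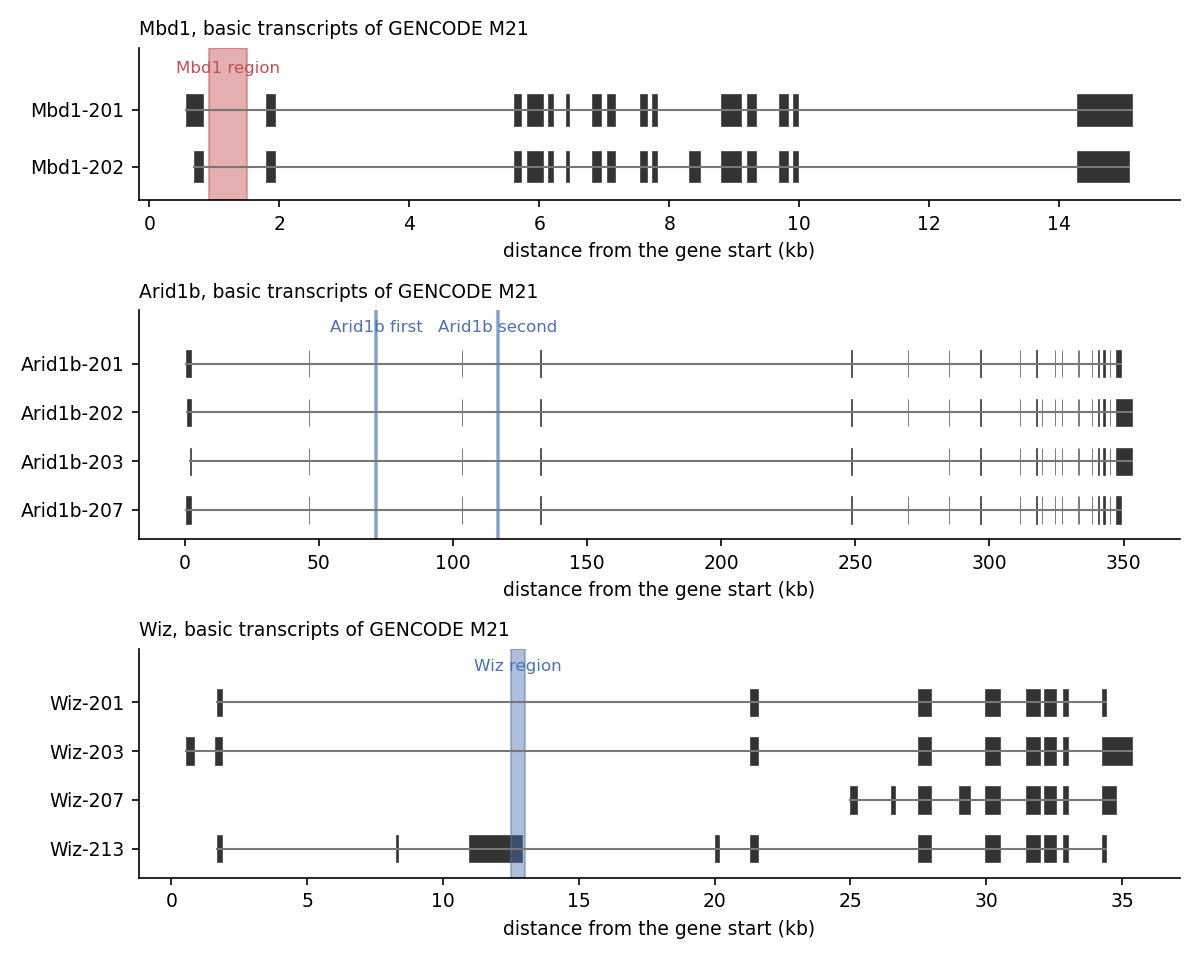
Exons (dark boxes) of the basic GENCODE M21 transcripts of each gene, drawn to scale as distance from the gene start in kb and in the direction of transcription, with the listed regions as shaded bands (red, higher in imiquimod; blue, lower). The Mbd1 band falls between exons 1 and 2, the Arid1b bands in long introns, and the Wiz band over the end of an exon present in Wiz-213 and absent from the 3 other basic transcripts.

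Arid1b, the BAF subunit gene, had 2 lower regions. The first (chr17:5065409-5065976, mm10) had an average pileup of 6.71 tags in imiquimod epidermis and 21.4 tags in Vaseline epidermis. It was 3.19-fold lower in imiquimod (1.81 to 5.84), or 16.97 against 54.2 tags over 567 bp. That difference ranked 3rd of the 271 lower regions, and 7 lower regions (1.92% of all listed) reached 3-fold. The highest window held 9 tags in imiquimod and 31 in Vaseline, 3.44-fold lower, and 9 is close to the lowest such value in any lower region, 8. Its imiquimod average was 30th lowest of the 271, while its Vaseline average was 66th highest. Lower regions were listed through their Vaseline tags, so these ranks are in part set by the selection.

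The second Arid1b region (chr17:5110697-5111406, mm10) was closer to the selection limit. Its average was 9 tags in imiquimod epidermis and 18.3 tags in Vaseline epidermis, 2.04-fold lower (1.30 to 3.38), with 28.5 against 58.0 tags over 709 bp. That ranked 238th of 271, and both averages were near the medians of the lower regions, 8.63 in imiquimod and 19.3 in Vaseline. The highest window held 15 tags in imiquimod and 33 in Vaseline, 2.20-fold lower. This is the region among the 4 whose interval reaches below 1.5-fold, whereas those of Mbd1, the first Arid1b region and Wiz stay above it. The interval stayed above 1.5-fold in 12 of the 93 higher regions (12.9%) and 66 of the 271 lower regions (24.4%). The regions were selected on the same values, and the intervals take no account of that. Staying above 1.5-fold is therefore no test.

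Both Arid1b regions lie in introns of a long gene and far from its start. Arid1b spans 353325 bp, and the regions are centred at 20.2% and 33.0% of its length. The first is in intron 2 of the 4 basic transcripts, an intron of 56799 bp, 24635 bp after its 5' end. The second is in intron 3 of the same transcripts, 29181 bp long, 12965 bp after its 5' end. No annotated Arid1b exon overlaps either. The gap between the regions is 44721 bp, and their numbers in the authors' list enclose 22 further numbered regions that are not in the deposited selection and for which no values were analysed here. The 2 regions come from the same libraries and the same gene and are not replicates of each other.

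The second region also lies on a processed pseudogene, a copy of a spliced transcript inserted in the genome. Gm15599, annotated on the opposite strand within the Arid1b intron, covers 641 bp (90.4%) of the region. Tags there could have come from a near-identical copy elsewhere, and the sources used here do not say how reads with several matches were placed, so the value of this region is uncertain. No other annotated gene overlaps the first Arid1b region or the Mbd1 region.

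Wiz, the gene of the G9a and GLP partner, was 2.79-fold lower (1.63 to 5.15). Its average pileup was 8.06 tags in imiquimod epidermis and 22.5 tags in Vaseline epidermis, or 18.2 against 50.8 tags over the region. The difference ranked 12th of the 271 lower regions. The highest window held 12 tags in imiquimod and 36 in Vaseline, 3.00-fold lower and 15th among the lower regions. At 506 bp it was the 5th shortest lower region, for which the median was 688 bp. The Vaseline average was 42nd highest of the 271, and the imiquimod average, 107th lowest, was close to the median of 8.63. Lower regions were listed with about 50 tags or more in Vaseline, so a region this short needed a high Vaseline average. The Vaseline rank is therefore largely set by the selection and is not a trait of Wiz.

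Whether the Wiz region is exonic depends on the transcript. Of 14 annotated Wiz transcripts, 10 contain the region, 4 overlap it with an exon and 1, Wiz-213, overlaps it with coding sequence, that of the 1983 bp exon whose end is printed above. In the basic transcripts Wiz-201 and Wiz-203 the same bases are intron, and the basic transcript Wiz-207 starts downstream of them. The deposited distance from the gene start is 12774 bp. RefSeq start windows of Wiz (GRCm38.p6; 250 bases before to 50 after a start) lie on both sides of the region, and the nearest, that of a shorter transcript, is 6741 bp away. None of the 4 Wiz windows overlaps it, and the Arid1b window is 70287 bp from the nearer Arid1b region. On the opposite strand the long noncoding RNA gene Gm26858 contains the Wiz region, with exon over 401 bp (79.2%) of it, and a signal from sonicated DNA belongs to no strand.

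The 3 lower regions shared features that follow in part from how they were listed. Each had a called interval in the Vaseline library and none in the imiquimod library, as did 253 listed regions (69.5%), all of them lower (93.4% of lower regions). Each lay inside a gene, as did 83.0% of all lower regions, and each was assigned to 1 gene, as were 59.0%. The search went through gene assignments, which some lower regions lack, so these comparisons are set in part by it. None of the 3 had a promoter, which 25.1% of lower regions had, or a CpG island, which 9.96% had. In every one the highest window differed by 2-fold or more in the same direction as the average, as it did at Mbd1. This was the case for 201 of the 271 lower and 61 of the 93 higher regions (55.2% and 16.8% of all listed). Averages and highest windows come from the same reads, so they are not separate evidence. The signal was less peaked in imiquimod than in Vaseline in the 4 regions, as in 192 of all 364 listed regions (52.7%): the highest window was 1.29, 1.34, 1.67 and 1.49 times the average in imiquimod for Mbd1, the first and second Arid1b regions and Wiz, and 1.33, 1.45, 1.80 and 1.60 times in Vaseline.

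**Figure D3:**
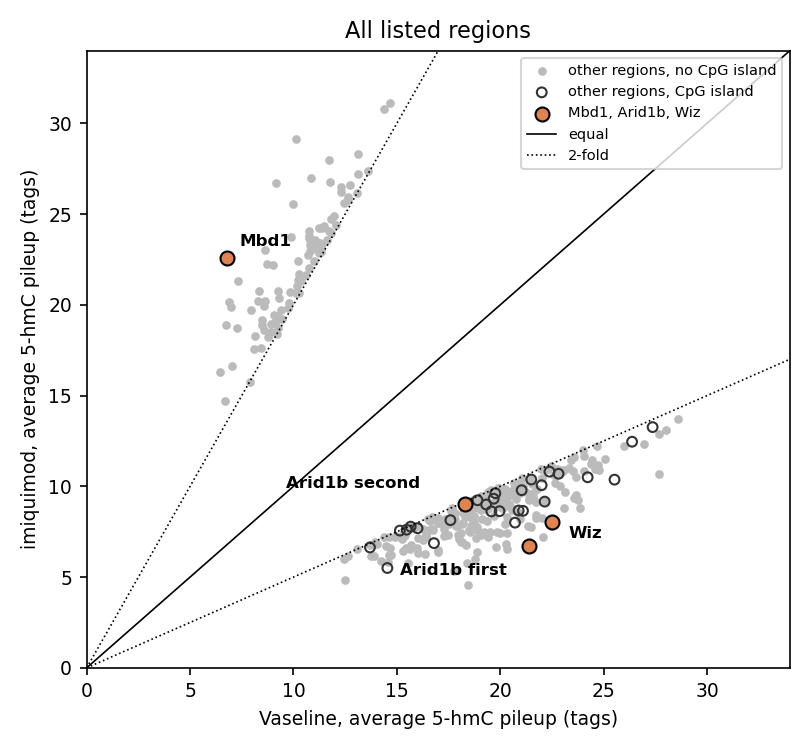
Average 5-hmC pileup in imiquimod (vertical axis) against Vaseline (horizontal axis), in tags, for all 364 listed regions, with the 4 regions of Mbd1, Arid1b and Wiz in orange, CpG-island regions as open circles and lines at equal and 2-fold values. Mbd1 stands at the low Vaseline edge of the higher regions, the second Arid1b region on the 2-fold line, and every open circle, all 27 of them in regions other than Mbd1, is below the line of equal values.

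The genes share chromosomes in part. Arid1b and Wiz are both on chromosome 17, which held 18 lower and 5 higher regions, and Mbd1 is on chromosome 18, which held 3 lower and 7 higher regions. Within 1 Mb of Wiz lay 4 further listed regions, at Cbs, Pknox1 and 2 places without a gene, and all 4 were lower (2.14-fold to 2.71-fold). As 74.5% of all listed regions were lower, this is no result about the place. From 60 to 152 numbered regions that are not listed lie between each of the 4 and Wiz. The nearest of the 4, without a gene, is 459147 bp from Wiz. Within 1 Mb of Mbd1 lay 1 further region, 81353 bp away in Ccdc11, with 8 unlisted numbered regions between them. Its average was 22.9 tags in imiquimod and 11.3 tags in Vaseline epidermis, 2.03-fold higher (1.24 to 3.44). With 1 neighbour close to the selection limit, this too is no result about the place. The counts per chromosome were not tested.

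Other genes of the same pathways were looked for in 5 lists of 127 genes, all of which are in the annotation. Among 26 methyl-CpG and CXXC reader genes, 1 had a higher region (Mbd1) and 1 a lower region (Fbxl19). Among 30 BAF complex genes Arid1b alone was listed, and among 20 genes of H3K9 methyltransferases and partners Wiz alone, both lower. None of the 16 DNA methylation and demethylation enzyme genes, TET and DNMT genes among them, and none of the 35 Polycomb and NuRD genes had a listed region. Over all lists 3 genes had a lower and 1 a higher region, beside 332 and 67 genes among all those assigned. The lists were chosen with Mbd1, Arid1b and Wiz already known to have regions. Their entries were therefore fixed in advance, and Fbxl19 alone was added by the search. Of 21924 annotated protein-coding genes, 1.35% had a lower and 0.233% a higher region under the same symbol, so a count of 0 in lists of this size says little. The other 123 are absent from a table of selected regions, which does not show that 5-hmC was alike there.

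Fbxl19, whose protein binds unmethylated CpG islands through a CXXC domain, differed in the direction opposite to Mbd1. Its region (chr7:127754634-127755412, mm10), inside the gene and without a CpG island, averaged 6.71 tags in imiquimod epidermis and 14.5 tags in Vaseline epidermis. It was 2.16-fold lower (1.30 to 3.73), and its highest window held 10 tags in imiquimod and 22 in Vaseline. No enriched interval was called there in either library, unlike in the 4 regions of Mbd1, Arid1b and Wiz, each of which had a call in 1 library.

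By size of difference, Mbd1 was followed among higher regions with a gene by Rtn1, a reticulon gene (2.92-fold). The first Arid1b region stood between a region over Hsd3b7 that was also assigned to the neighbouring Setd1a (3.34-fold) and one at Rrad (3.17-fold). The second stood between regions in Sulf2 (2.038-fold) and Setd7 (2.034-fold), both overlapping an annotated exon, and Wiz between Prom2 (2.87-fold) and a region in A230087F16Rik and Cdc42bpb (2.77-fold). Setd1a and Setd7 encode histone methyltransferases for lysine 4 of histone H3 and were not on the lists. The intervals of these neighbours overlap those of the members almost wholly, so the order within each direction is not resolved at this depth. For Setd7 the interval was 1.31 to 3.34, beside 1.30 to 3.38 for the second Arid1b region.

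**Figure D4:**
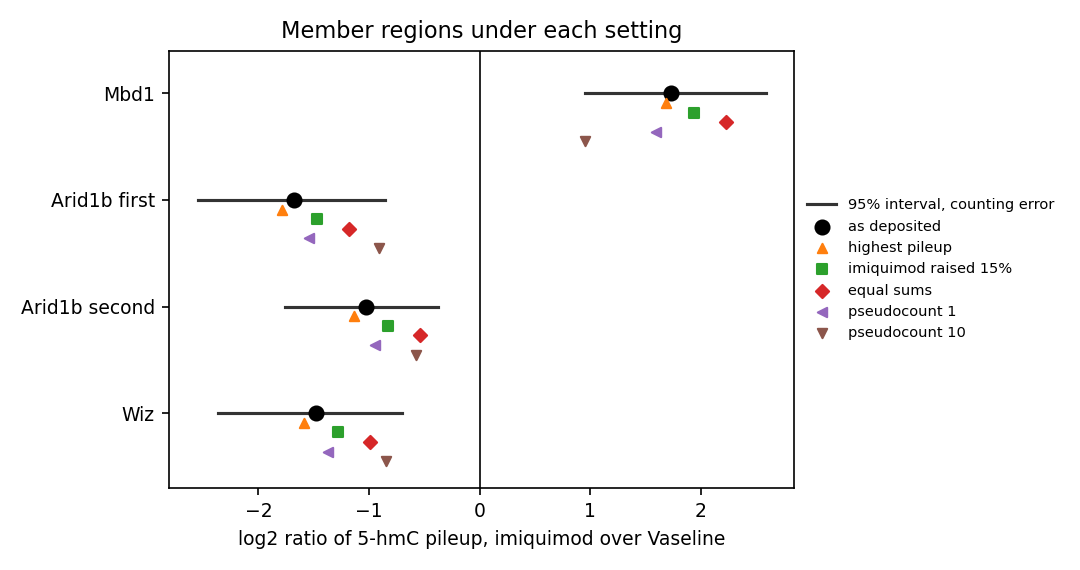
Log2 ratio of the 5-hmC pileup, imiquimod over Vaseline, for each region: the value from the deposited averages (black) with its 95% counting interval, and below it the values with other scalings, pseudocounts or the highest pileup. Mbd1 is above 0 and the 3 other regions below 0 at every setting drawn, and the second Arid1b region comes nearest to 0, at -0.54 with equal sums.

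The sources used here do not state the scaling between libraries, which bears on how many of these regions stay 2-fold different. With the imiquimod values raised by 15 percent, the first Arid1b region and Wiz were 2-fold lower and the second Arid1b region was not. With the averages scaled to equal sums over the listed regions (imiquimod times 1.40), the first Arid1b region alone stayed 2-fold lower, and Wiz had a log2 ratio of -0.99. Mbd1 had a log2 ratio of 1.94 and 2.22 under these scalings, beside 1.73 as deposited. Scalings of this size cannot turn the sign of a region that differs by 2-fold, so the kept directions are no sign of stability.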

How the data were processed

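The authors' deposited table gives, per merged region and library, an average and a highest tag pileup (coverage signal), a call of an enriched interval, and counts of genes, promoters and CpG islands. Epidermis was separated with dispase, per the labels' protocols. Per the submitters' processing notes, CASAVA and MACS2 were used with mm10 (no versions named). The sources used here name no aligner, duplicate handling, fragment extension, input or scaling. The file headers show that intervals of 4 libraries were merged, and the table's name gives limits of about 50 tags and 2-fold. The other 2 libraries, with 6 columns, do not belong to this series and stayed out. WT-treated and WT-control were matched to imiquimod and Vaseline by those words alone.

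In the authors' deposited log2 column each value is the log2 of imiquimod over Vaseline averages, and their deposited tag score is the larger average times length over 224 (both in all 364 regions, tolerance 1e-06), so tags per library were computed that way. They sum to 12942 in imiquimod and 19445 in Vaseline. Total depth is unknown. Intervals are Clopper-Pearson intervals of the imiquimod share of rounded tags at 95%. These tags are computed from averages of unknown scaling, so the widths would be wrong if the averages had been scaled. Simulated counts drawn from the model that the intervals assume checked the calculation alone, not its fit to these data. Sequenced fragments are not independent molecules, so they cover counting error only. Starts may be counted from 0. Placement used GENCODE M21 (GRCm38, the assembly mm10 names). Members and lists were chosen with earlier results of these data known. Genes were named as members, list genes with a region, neighbours in rank or within 1 Mb, and the 3 lower CpG-island regions of greatest ratio, and Trim45 and Krt1 outside this rule. Alternatives were 2 scalings, pseudocounts of 1 and 10, the highest pileup and a minimum of 3-fold. Tools were SciPy 1.17.1, pandas 2.3.3, numpy 2.4.6 and matplotlib 3.10.9 under Python 3.11.15.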

Additional observations from a re-analysis of the deposited data

How the results depend on the processing

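No paired analysis was possible because there is 1 library per condition, so no replicate could be left out either. The log2 ratios of the 4 regions kept their direction under equal sums, imiquimod raised by 15 percent, pseudocounts of 1 and 10 and the highest pileup, and all but 1 of these 20 values stayed inside the counting interval of its region. The exception was Mbd1, with 0.96 at a pseudocount of 10, which shrinks every ratio at these averages. A pseudocount cannot change the sign of a ratio, and these scalings cannot turn a 2-fold difference. The highest pileup alone could have changed a direction, and it comes from the same reads. The counting interval does not measure shifts from scaling or pseudocounts, so these outcomes are no sign of stability. Of the 3 lower regions of Arid1b and Wiz, 1 was 2-fold lower with equal sums, 0 at a pseudocount of 10, and 1 reached 3-fold. The higher Mbd1 region was 2-fold higher in all settings but a pseudocount of 10, which left 0. Among all listed regions, 270 were at least 2-fold lower as deposited, 11 with equal sums, 85 with imiquimod raised by 15 percent, 0 at a pseudocount of 10, and 7 at 3-fold. At least 2-fold higher were 92, with 0 at a pseudocount of 10, 61 by the highest pileup and 1 at 3-fold. Regions that a scaling would add are not listed.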
